A study of Sus scrofa with 6 samples.

Results

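The genes of the adaptor protein complexes AP-1 to AP-5 and of BLOC-1 were examined in skeletal muscle of pigs with a UCP1 knock-in meant for adipocytes (UCP1 KI) and of wild-type (WT) pigs. The genes were taken by symbol, as adaptor protein subunits, as BLOC-1 subunits, or as *SNAPIN* and *DTNBP1*, and were kept with any count in at least 3 pigs. Of 34 such symbols with a pig Ensembl identifier, 33 were in the count table and 32 were kept, out of 20062 genes with any count. These comprised 7 genes of AP-1, 5 of AP-2, 6 of AP-3, 4 of AP-4, 4 of AP-5 and 6 of BLOC-1. *AP1M2*, the epithelial mu subunit of AP-1, had 4 counts in UCP1 KI replicate 2 and none in the other pigs and was not kept. No identifier stood under the symbols *AP3S1* and *BLOC1S3*, and *BLOC1S4* had an identifier without a row, so these genes were not analysed here.

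Muscle of the longissimus dorsi, which runs along the back, was sampled at 6 months of age from 3 UCP1 KI pigs, whose UCP1 was inserted by CRISPR/Cas9 for expression in adipocytes, and from 3 WT pigs. UCP1 is the uncoupling protein of thermogenic fat and is not expressed as a working protein in ordinary pigs, and the insertion was meant to act in fat and not in the muscle measured here. Each pig gave 1 RNA-seq library, so the spread between libraries was a spread between animals. The sources used here do not give the sex or the relatedness of the pigs or the promoter behind the inserted gene. *UCP1* had no identifier among the gene names used. The study reports that its RNA-seq found no *UCP1* mRNA in muscle of either group, so muscle counts would not check the genotype. Counts on genes summed to between 30220951 and 35066624 per pig. WT replicate 2 stood apart, with 56.5% of its counts in its 20 most counted genes against 39.0% to 44.8% in the other pigs and the lowest TMM factor, 0.781. Without it, 718 genes in place of 1097 and 2 of the adaptor protein and BLOC-1 genes in place of 4 passed the limits of a call. The 2 were *AP3S2*, at a log2 fold change of 1.32, and *AP5B1*, at 0.86. Such a fall was not particular to WT replicate 2. Without UCP1 KI replicate 2, 678 genes and 3 of the adaptor protein and BLOC-1 genes passed. Without UCP1 KI replicate 3, 1151 and 2 did. Levels are given in CPM, or counts in each 1000000 of a TMM-scaled library, which were not divided by gene length and therefore do not rank genes against each other. At these depths 3 counts, the limit that a count of 0 allows, came to between 0.0795 and 0.11 CPM, a limit that covers counting error only. Of the muscle fibre markers listed, 5 of 11 were found and their summed level was between 58439 and 99756 CPM.

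Adaptor protein complexes pick membrane proteins as cargo and gather them into transport vesicles. Each complex joins a pair of large subunits, one of them a beta chain, to a medium mu and a small sigma subunit, and the mu and sigma subunits hold the pockets that read sorting motifs in the tails of cargo. AP-1 works between the trans-Golgi network and endosomes, AP-2 works in clathrin-mediated endocytosis at the cell surface, AP-3 sends cargo from endosomes to lysosomes and related organelles, AP-4 exports cargo such as ATG9A from the trans-Golgi network, and AP-5 acts at late endosomes with the proteins SPG11 and SPG15. BLOC-1 is a separate, elongated complex of small coiled-coil proteins that works with AP-3 in the making of lysosome-related organelles, and some of its subunits also sit in BORC, a complex that positions lysosomes. In muscle fibres these routes also handle the glucose transporter GLUT4, which insulin brings to the surface.

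**Figure D1:**
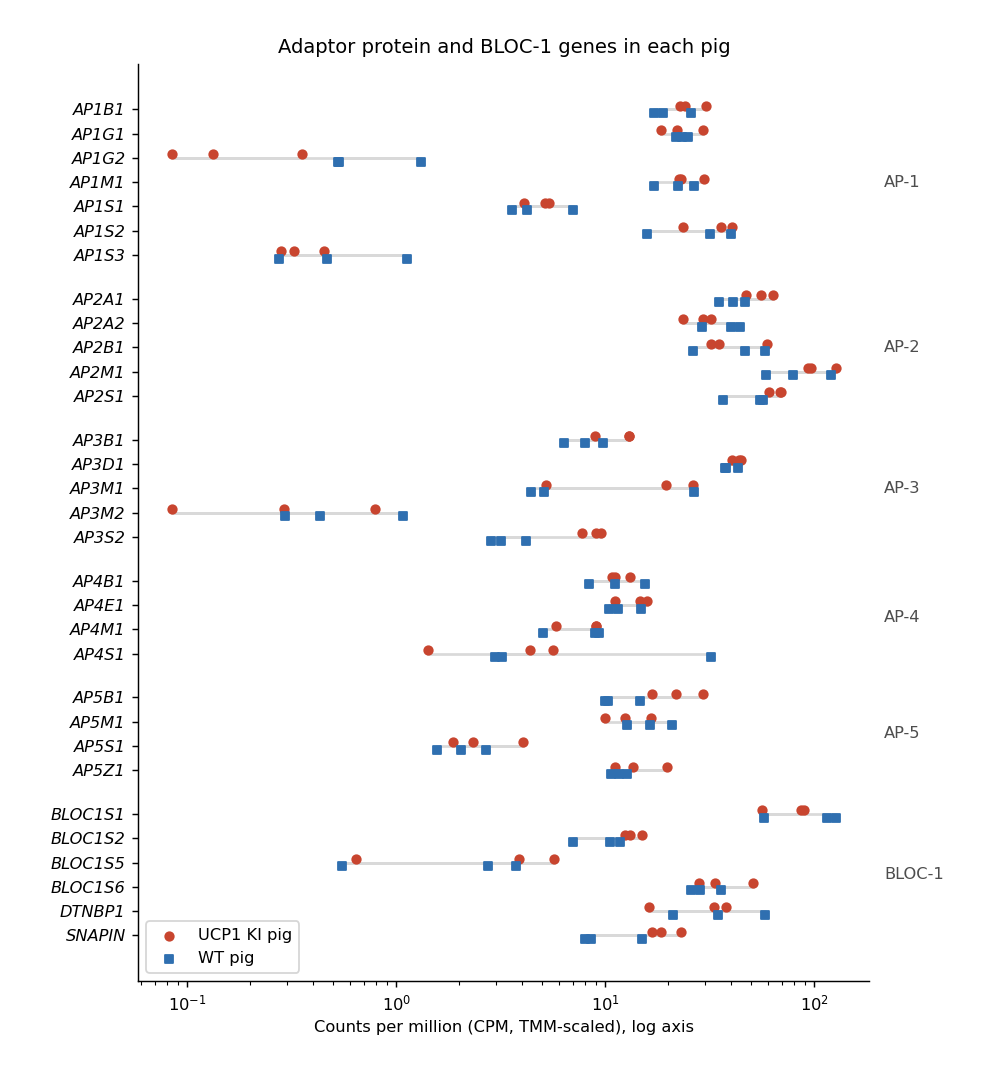
Level of 31 adaptor protein and BLOC-1 genes in each pig, in TMM-scaled CPM on a log axis, grouped by complex. Red circles are the 3 UCP1 KI pigs and blue squares the 3 WT pigs. *AP3B2*, with counts of 0 in 3 pigs, is not drawn, and *AP3S2*, *AP5B1* and *SNAPIN* show every red circle to the right of every blue square.

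A gene was called where edgeR's quasi-likelihood test gave a p, before adjustment, below 0.05 and the log2 fold change, UCP1 KI against WT, was larger than 0.5 in size. Of the 31 genes tested, 3 were higher in the UCP1 KI group, namely *AP3S2*, *AP5B1* and *SNAPIN*, and 1 was lower, *AP1G2*, while 27 were not called. The 4 calls were 12.9% of the genes tested, against a background of 8.19% of all 13402 genes tested (3.84% higher and 4.34% lower). The UCP1 KI pigs all lay above the WT pigs for 6 genes (*AP2A1*, *AP2S1*, *AP3S2*, *AP5B1*, *BLOC1S2* and *SNAPIN*), where the background was 7.59%, and all lay below them for *AP1G2*, where it was 7.69%. The median log2 fold change of the 31 genes was 0.19, against -0.02 over all genes tested, and 20 of them (64.5%) had a positive value, where 48.7% of all genes did. Without UCP1 KI replicate 3 the median was 0.03 and 16 of the 31 values were positive. After Benjamini-Hochberg adjustment over all genes, edgeR left 0 of the 31 genes with an adjusted p under 0.05, as it left 0% of all genes, although 4 of the 31 had an unadjusted p under 0.05. The smallest edgeR adjusted p among the 31 genes was 0.403, for *AP3S2*. DESeq2, run on the same genes as an alternative, left 1 of the 31, *AP3S2*, among 127 genes in all. Scaling by library size only, which raised the median of all genes by 0.25, called 6 genes higher and 1 lower in place of 3 and 1, the added genes being *AP2S1* at 0.71, *AP3B1* at 0.80 and *BLOC1S2* at 0.75.

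**Figure D2:**
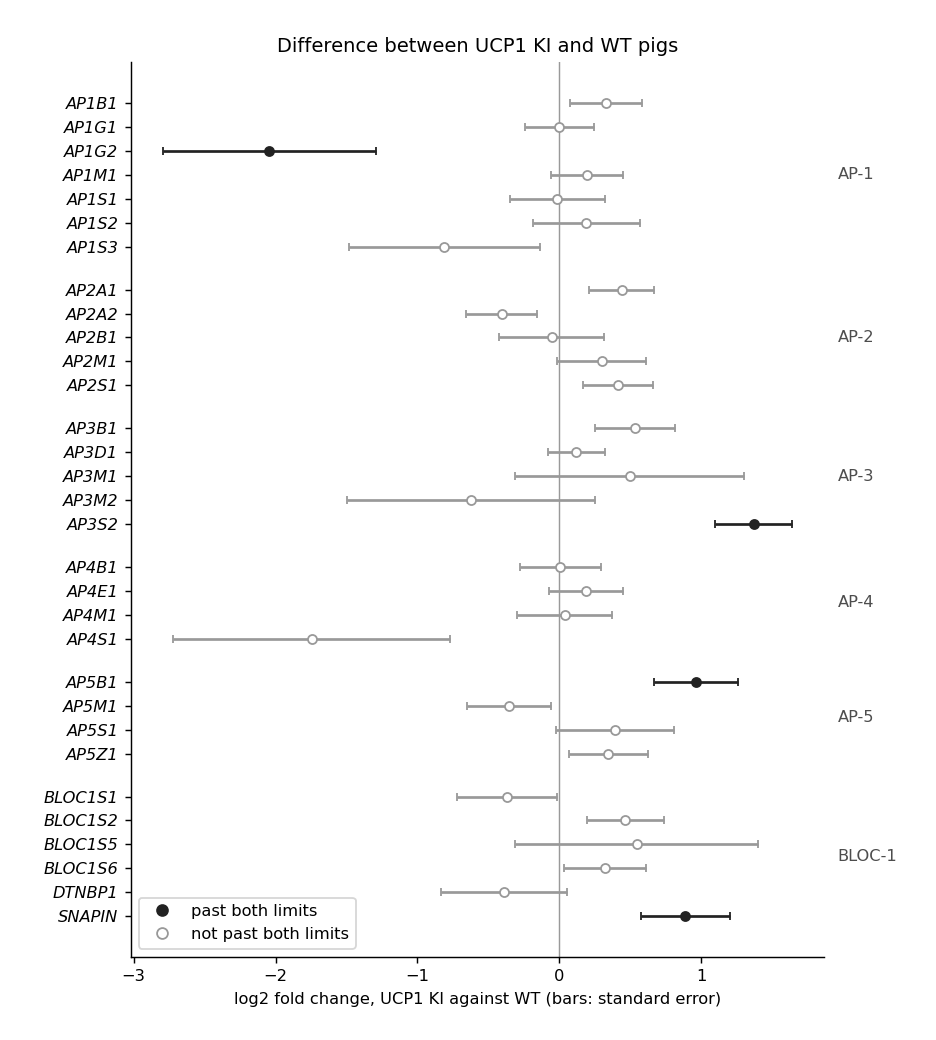
Log2 fold change of each tested gene, UCP1 KI against WT, with its standard error as a bar, from edgeR's quasi-likelihood fit over all genes. Filled points passed both limits of the call, and the open points of *AP3M1*, *AP3M2*, *AP4S1* and *BLOC1S5* carry the longest bars among the genes not called.

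*AP3S2* (ENSSSCG00000030174), which encodes the sigma-2 subunit of AP-3, had the smallest p of the 31 genes. The annotation of Sscrofa11.1 places it on chromosome 7 from 55395159 to 55462352. It was measured at 7.73, 9.51 and 9.06 CPM in UCP1 KI replicates 1 to 3, against 2.84, 3.18 and 4.17 CPM in WT replicates 1 to 3. The lowest UCP1 KI pig thus lay well above the highest WT pig. The log2 fold change was 1.37 (standard error 0.27, edgeR adjusted p = 0.403), or 2.58-fold, and it stayed between 1.25 and 1.54 and called with each pig left out in turn. DESeq2 on the same genes gave 1.36 (standard error 0.31) with an adjusted p of 0.00406, and an adjusted p of 0.0130 on all genes with any count.

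The other AP-3 subunits did not differ by these limits. *AP3D1*, the delta chain that is found only in AP-3, was the most even of the 31 genes, with a highest pig only 1.19-fold above the lowest, and its log2 fold change was 0.12. *AP3B1*, the ubiquitous beta chain, had a mean of 11.6 ± 2.35 CPM (SD, n = 3) in the UCP1 KI group against 8.03 ± 1.72 CPM (SD, n = 3) in the WT group, with a log2 fold change of 0.53 (edgeR adjusted p = 0.653). The neuronal isoforms were barely detected. The 3 UCP1 KI replicates had 0, 6 and 5 counts of *AP3B2*, the WT replicates had 2, 0 and 0, and the gene was not tested, and *AP3M2* had between 3 and 39 counts in each pig, with a log2 fold change of -0.62 (standard error 0.87).

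Because *AP3S2* and *AP3D1* products meet in 1 complex, their counts were set against each other within each pig, a ratio that no scaling between libraries can move. This measure was added after the values were seen, since the paralog *AP3S1* could not be used. *AP3S2* took 16.1%, 17.6% and 17.2% of the counts of both genes in the UCP1 KI group, against 7.0%, 7.86% and 8.81% in the WT group. The shares were 17.0% ± 0.811 (SD, n = 3) and 7.89% ± 0.906 (SD, n = 3), without overlap. The log2 ratio differed by 1.26 (two-sided exact permutation test, p = 0.1, which is as low as 3 pigs against 3 can go). Because *AP3D1* hardly varied between pigs, this ratio largely restates the difference in *AP3S2*. Its p was settled once the groups did not overlap, and it is not separate support.

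**Figure D3:**
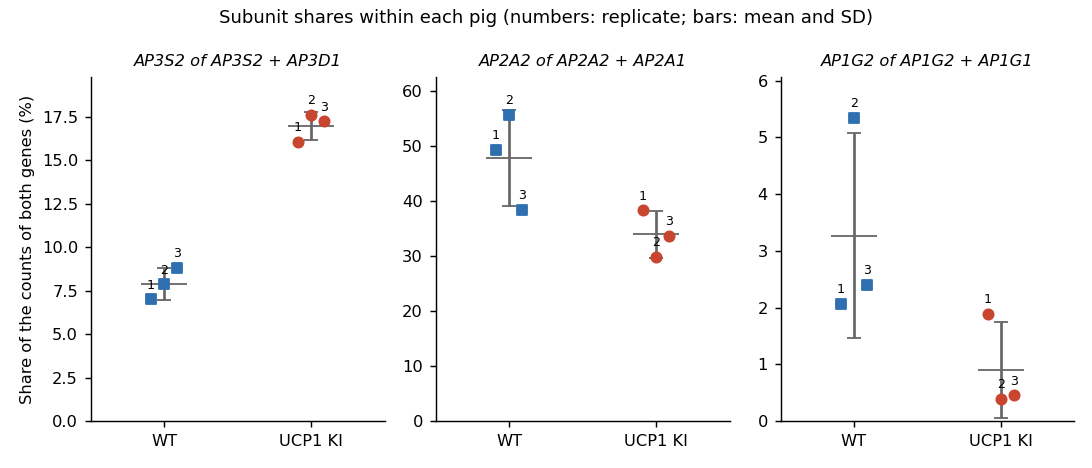
Share of the counts of both genes, in percent, that fell on *AP3S2* (against *AP3D1*), on *AP2A2* (against *AP2A1*) and on *AP1G2* (against *AP1G1*). Each point is 1 pig, numbered by replicate, and bars give the mean and SD of each group. *AP3S2* took 17.0% in the UCP1 KI group and 7.89% in the WT group, and the WT replicate 3 of the *AP2A2* panel sits level with UCP1 KI replicate 1.

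The genes beside *AP3S2* were examined because transcripts can run on from one gene into the next. *ARPIN*, an inhibitor of the Arp2/3 actin nucleator, lies 6663 bases from *AP3S2* on its higher-coordinate side. It was measured at 9.93, 9.84 and 9.14 CPM in the UCP1 KI group, against 3.47, 6.90 and 6.47 CPM in the WT group, again without overlap, and was called higher at a log2 fold change of 0.78 (edgeR adjusted p = 0.603), in 2 of 6 fits with a pig left out. The log2 ratio of *AP3S2* to *ARPIN*, also added after the values were seen, was 0.54 higher in the UCP1 KI group, with overlapping pigs (two-sided exact permutation test, p = 0.2). *ANPEP*, on the opposite side, had a log2 fold change of -0.02. A pseudogene overlaps *AP3S2* by 1159 bases, and the part of the neighbours in the *AP3S2* counts was not tested.

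The second call was in AP-5. *AP5B1* (ENSSSCG00000012978, chromosome 2, 6538784 to 6551337), the beta chain of the late endosomal complex, was at 16.7, 21.8 and 29.5 CPM in the UCP1 KI group, against 10.3, 9.93 and 14.6 CPM in the WT group. Every UCP1 KI pig was above every WT pig, although the UCP1 KI pigs were widely spread. The log2 fold change was 0.96 (standard error 0.30, edgeR adjusted p = 0.583), and with each pig left out it ran from 0.73 to 1.17 and was called each time. DESeq2 on the same genes gave an adjusted p of 0.201. *OVOL1* overlaps *AP5B1* by 209 bases and had almost no counts, between 0 and 0.033 CPM as group means. A pseudogene without an identifier in the gene names overlaps *AP5B1* by 602 bases, and its part in the *AP5B1* counts was not tested.

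The remaining AP-5 subunits were not called. The zeta chain *AP5Z1* had a log2 fold change of 0.34 and the sigma subunit *AP5S1* one of 0.39, whereas the mu subunit *AP5M1* had one of -0.35, with standard errors of 0.28, 0.42 and 0.30. *AP5M1* had a mean of 13.0 ± 3.36 CPM (SD, n = 3) in the UCP1 KI group against 16.7 ± 4.05 CPM (SD, n = 3) in the WT group. Of the proteins that dock AP-5, *SPG11* and *ZFYVE26*, which encodes SPG15, were tested among the partner genes and were not called.

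In BLOC-1, 1 of 6 subunits was called, where the background was 8.19% of all genes tested. *SNAPIN* (ENSSSCG00000034159, chromosome 4, 95987524 to 95989527), a subunit of both BLOC-1 and BORC that also binds the SNARE protein SNAP25, was at 16.8, 18.5 and 23.1 CPM in the UCP1 KI group, against 7.99, 8.58 and 15 CPM in the WT group. WT replicate 3 came close to the lowest UCP1 KI pig, and the other WT pigs lay far below. The log2 fold change was 0.89 (standard error 0.31, edgeR adjusted p = 0.583). This call depended on the pigs used: the fold change was 0.75 without UCP1 KI replicate 3, 0.72 without WT replicate 1, and 0.76 without WT replicate 2, and was not called in these 3 fits. *ILF2*, which overlaps *SNAPIN* by 45 bases, had a log2 fold change of 0.02.

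*BLOC1S2*, which like *SNAPIN* belongs to BLOC-1 and BORC, was at 13.1, 14.9 and 12.4 CPM in the UCP1 KI group, against 7.03, 10.5 and 11.8 CPM in the WT group. These groups did not overlap, but the log2 fold change of 0.46 (standard error 0.27, edgeR adjusted p = 0.677) did not pass. *BLOC1S1*, the third subunit shared with BORC, had a log2 fold change of -0.37, *BLOC1S6* (pallidin) one of 0.32 and *DTNBP1* (dysbindin) one of -0.39. Of the BORC subunits outside BLOC-1, 0 of 5 were called, and 4 of the 5 had a positive log2 fold change. Of all genes tested, 8.19% were called and 48.7% had a positive value, and nothing is read from so few genes. The median over the 6 BLOC-1 genes was 0.39, against -0.02 over all genes tested.

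AP-1 held the 1 lower call. *AP1G2* (ENSSSCG00000002015, chromosome 7, 75533131 to 75549490), the gamma-2 chain that can replace the gamma-1 chain, had only 11, 3 and 5 counts in the UCP1 KI group, against 19, 36 and 16 counts in the WT group. These are 0.356, 0.0841 and 0.132 CPM against 0.524, 1.31 and 0.534 CPM, so that every UCP1 KI pig was below every WT pig and UCP1 KI replicate 2 was at the limit of 3 counts. The log2 fold change was -2.04 (standard error 0.75, edgeR adjusted p = 0.583). It was called in 3 of 6 fits with a pig left out, and was not called without UCP1 KI replicate 2 (-1.69), UCP1 KI replicate 3 (-1.83) or WT replicate 2 (-1.47), while it reached -2.81 without UCP1 KI replicate 1. *THTPA*, which overlaps *AP1G2* by 1061 bases, was called in the opposite direction at 0.61, in 2 of 6 fits with a pig left out, and the sources do not state whether reads were counted by strand, so reads of the 2 genes in the shared stretch cannot be told apart. *JPH4*, which lies 148 bases from *AP1G2* on the opposite side, had a log2 fold change of -0.77, in the direction of *AP1G2*, and was not called.

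The gamma-1 chain *AP1G1*, the form used in most cells, was at 23.3 CPM in both groups, with a log2 fold change of -0.00 (standard error 0.24). *AP1G2* made up 0.904% ± 0.846 (SD, n = 3) of the counts of both gamma genes in the UCP1 KI group and 3.27% ± 1.81 (SD, n = 3) in the WT group. The log2 ratio differed by -2.15 without overlap (two-sided exact permutation test, p = 0.1, adjusted over 5 pairs of paralogs 0.25). The common subunits of AP-1 did not separate, with log2 fold changes of 0.33 for the beta chain *AP1B1*, 0.19 for *AP1M1*, -0.02 for *AP1S1* and 0.19 for *AP1S2*. The sparse sigma isoform *AP1S3*, with 10 to 31 counts per pig, had a log2 fold change of -0.81 (standard error 0.67).

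AP-2 had no call, and its alternative alpha chains had log2 fold changes of opposite sign. *AP2A1* was at 47.3, 55.6 and 63.2 CPM in the UCP1 KI group, against 41.0, 35.0 and 46.5 CPM in the WT group, with a log2 fold change of 0.44 (standard error 0.23, edgeR adjusted p = 0.645). *AP2A2* was at 29.4, 23.6 and 32.2 CPM in the UCP1 KI group, against 40.0, 44.1 and 29.0 CPM in the WT group, with a log2 fold change of -0.41 (standard error 0.25, edgeR adjusted p = 0.693). Both chains occupy the same place in AP-2, which carries 1 of them at a time.

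Set against each other within a pig, *AP2A2* took 38.3%, 29.9% and 33.7% of the alpha-chain counts in the UCP1 KI group, against 49.4%, 55.7% and 38.4% in the WT group. The mean shares were 34.0% ± 4.25 (SD, n = 3) and 47.8% ± 8.78 (SD, n = 3). The highest UCP1 KI pig and the lowest WT pig were almost equal, so the absence of overlap rests on near-equal values. The log2 ratio differed by -0.84 (two-sided exact permutation test, p = 0.1, adjusted over 5 pairs 0.25). Among the other subunits, *AP2S1* had a mean of 66.3 ± 5.05 CPM (SD, n = 3) in the UCP1 KI group against 49.7 ± 11.3 CPM (SD, n = 3) in the WT group, without overlap, with a log2 fold change of 0.41 (edgeR adjusted p = 0.682), *AP2M1* had a log2 fold change of 0.30 and *AP2B1* one of -0.05. The remaining 3 paralog pairs tested overlapped between the groups, with log2 ratio differences of -1.65 for *AP3M2* against *AP3M1*, 0.22 for *AP1S2* against *AP1S1* and -0.65 for *AP1S3* against *AP1S1* (exact permutation p = 0.4, 0.8 and 0.3).

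The larger subunits of AP-4 did not separate the groups. The log2 fold changes were 0.01 for the beta chain *AP4B1*, 0.19 for the epsilon chain *AP4E1* and 0.04 for the mu subunit *AP4M1*. The sigma subunit *AP4S1* differed instead between single pigs, at 1.42, 4.35 and 5.64 CPM in the UCP1 KI group, against 2.98, 3.21 and 32.2 CPM in the WT group. WT replicate 3 alone was high, and the range of 22.6-fold was the widest of the genes tested in these complexes. The log2 fold change was -1.75 (standard error 0.98, edgeR adjusted p = 0.662) with all pigs and 0.30 without WT replicate 3. DESeq2 gave no p for *AP4S1*.

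*STRN3*, which overlaps *AP4S1* by 4883 bases, was at 86.8 CPM in WT replicate 3 and between 54.9 and 119 CPM over all pigs. The high level in WT replicate 3 was thus seen in *AP4S1* and not in *STRN3*.

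*AP3M1* and *BLOC1S5* also held pigs far apart within both groups. *AP3M1*, the ubiquitous mu subunit of AP-3, was at 19.6, 26.3 and 5.19 CPM in the UCP1 KI group, against 26.6, 5.11 and 4.44 CPM in the WT group, that is, at a high level in 3 pigs and a low level in the other 3, with both levels in each group. Its log2 fold change was 0.50 (standard error 0.81) and became 1.83, called, without WT replicate 1. *VCL* and *ADK*, the genes on its sides, ran between 120 and 179 CPM and between 1.71 and 9.06 CPM. The levels of *ADK* were 4.17, 1.71 and 9.06 CPM in UCP1 KI replicates 1 to 3 and 2.95, 2.70 and 7.04 CPM in WT replicates 1 to 3, so that of the 3 pigs low for *AP3M1*, 2 were high for *ADK* and WT replicate 2 was not.

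*BLOC1S5* (muted), a core BLOC-1 subunit, was at 3.88, 0.645 and 5.67 CPM in the UCP1 KI group, against 0.551, 3.73 and 2.74 CPM in the WT group. A low pig thus occurred in each group, and the log2 fold change of 0.54 (standard error 0.85) was smaller than its standard error. *EEF1E1*, which lies 4995 bases from *BLOC1S5*, was at 4.33, 4.80 and 4.40 CPM in the UCP1 KI group, against 2.12, 2.99 and 3.07 CPM in the WT group. It was called higher at 0.72 (edgeR adjusted p = 0.603), in 1 of 6 fits with a pig left out, and its lowest pig, WT replicate 1, was also the lowest for *BLOC1S5*, whereas UCP1 KI replicate 2 was low for *BLOC1S5* alone.

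**Figure D4:**
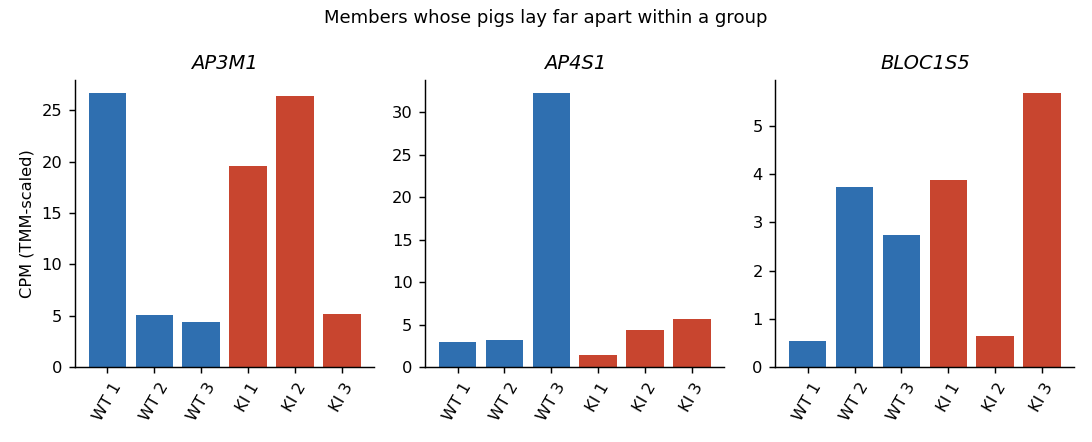
Level of *AP3M1*, *AP4S1* and *BLOC1S5* in each pig, in TMM-scaled CPM, with WT pigs as blue bars and UCP1 KI pigs as red bars. The 3 genes have more than 5-fold between their highest and lowest pig at a mean above 1 CPM. *AP4S1* reaches 32.2 CPM in WT replicate 3 alone, and *AP3M1* has high and low pigs in both groups.

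Genes that act with these complexes were taken from lists of accessory proteins, coats, SNAREs, tethers and cargo. Of 97 listed genes, 89 were found and 87 tested, and 6 were called (6.90%, against the background of 8.19%), 2 higher and 4 lower, with a median log2 fold change of 0.13. This count moved with the setting, to 10 with library size only, 9 with the replicate number as a block, 3 without WT replicate 2 and 13 without WT replicate 3, so nothing is read from its place below the background. The adaptor accessory and cargo adaptor list held 4 of the 6 calls among 23 genes tested. No gene was called among the 8 of HOPS and CORVET, the 5 clathrin genes, the 6 ARF GTPase genes, the 4 of retromer, the 11 SNAREs and their partners, or the 4 of BLOC-2 and BLOC-3. The groups did not overlap for 18 of the 87 genes (20.7%, against 15.3% of all genes tested), 11 of them higher and 7 lower, and the 6 called genes were among these.

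*GGA3*, a monomeric clathrin adaptor of the trans-Golgi network with an ear domain related to that of the AP-1 gamma chains, was at 11.5, 34.6 and 22.9 CPM in the UCP1 KI group, against 9.32, 4.53 and 8.21 CPM in the WT group. *GGA3* had a log2 fold change of 1.64 (standard error 0.45, edgeR adjusted p = 0.583), called in 6 of 6 fits with a pig left out. *COPG2*, a gamma subunit of the COPI coat, whose core is related to the adaptor complexes, was called at 0.72, in 2 of 6 such fits. The other 8 COPI genes tested were not called, although 4 of the 9, *COPG2* included, had every UCP1 KI pig above every WT pig, where the background was 7.59%.

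*DAB2*, a clathrin adaptor that brings receptors of the LDL receptor family to AP-2, was at 14.4, 14 and 14.8 CPM in the UCP1 KI group, against 31.6, 37.7 and 19.2 CPM in the WT group. *DAB2* had a log2 fold change of -1.04 (standard error 0.29, edgeR adjusted p = 0.583), called in 6 of 6 fits with a pig left out. *AAK1*, the kinase that phosphorylates the AP-2 mu subunit, was called at -1.19 (4 of 6 fits), and *NECAP2*, an endosomal AP-binding protein, at -0.70 (2 of 6 fits). The mannose 6-phosphate receptor *M6PR*, a cargo of AP-1 and the GGA proteins, was called at -0.77 (2 of 6 fits), at 14.3 ± 3.28 CPM (SD, n = 3) in the UCP1 KI group against 24.4 ± 4.92 CPM (SD, n = 3) in the WT group.

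In bulk muscle, fewer cells of a type and less RNA per cell cannot be told apart, and marker genes of other cell types moved with the groups. Of the fibroblast markers, 4 of 6 were called lower, where the background was 4.34% of all genes tested. Their summed level was between 235 and 435 CPM in the UCP1 KI group and between 742 and 1187 CPM in the WT group. The red blood cell markers summed to between 11.4 and 76.0 CPM and between 105 and 180 CPM, with 0 of 3 called. The fibroblast markers thus differed in the same direction as *AP1G2*, *DAB2*, *AAK1*, *NECAP2* and *M6PR* and opposite to *AP3S2*, *AP5B1*, *SNAPIN* and *GGA3*, and their part in these results was not tested.

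Other marker sums overlapped between the groups, at 18.5 to 55.5 and 18.2 to 32.4 CPM for leukocytes (1 of 5 called, higher, and all 5 with a positive log2 fold change, the direction of *AP3S2*, *AP5B1*, *SNAPIN* and *GGA3*, at a median of 0.79, whose part in them was not tested), 158 to 205 and 123 to 330 CPM for adipocytes (1 of 6 called, higher, but 4 of the 6 with a negative log2 fold change and a median of -0.96), 261 to 507 and 267 to 503 CPM for endothelial cells and 24.2 to 43.6 and 19.3 to 53.6 CPM for Schwann cells. Beside these counts, 8.19% of all genes tested were called and 48.7% had a positive log2 fold change. *SNAPIN*, *AP3B2* and *AP3M2* are best known from neurons. The neuron markers summed to between 27.2 and 47.4 CPM in the UCP1 KI group and between 26.5 and 33.6 CPM in the WT group, with 0 of 2 called, and most of this came from *GAP43*, while *STMN2*, *ELAVL4*, *SYT1* and *RBFOX3* were at or near 0.

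**Figure D5:**
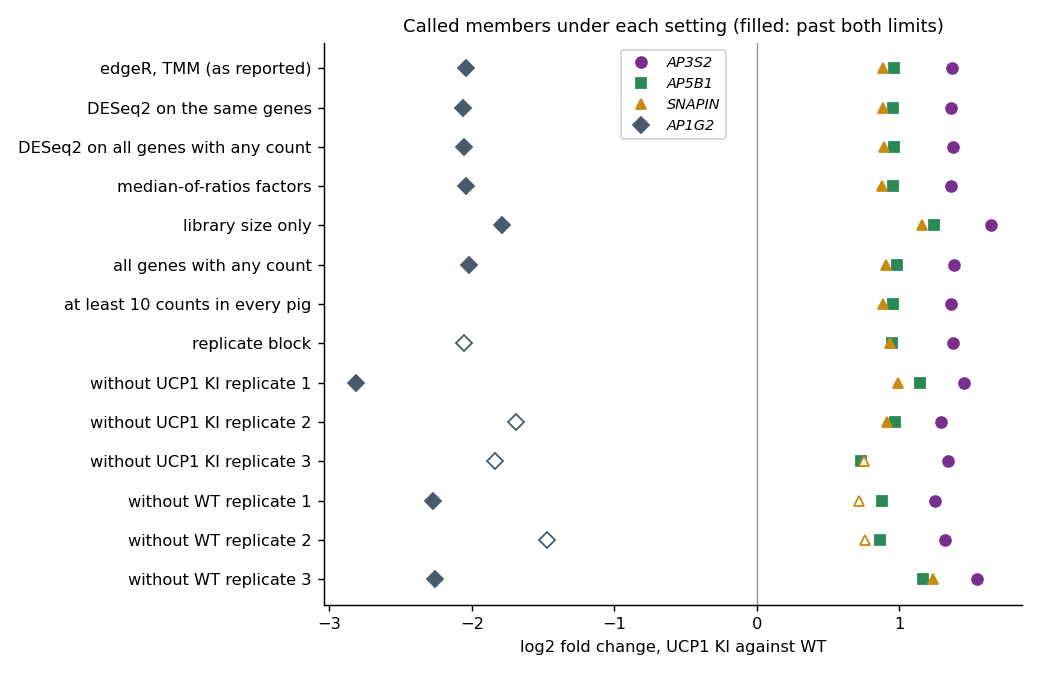
Log2 fold change, UCP1 KI against WT, of the 4 called genes in the reported fit and under each alternative setting, with filled symbols where both limits were passed. *AP3S2* and *AP5B1* stay filled under every setting drawn, *SNAPIN* is open at 0.75, 0.72 and 0.76, and *AP1G2* is open at -2.05 with the replicate number as a block and at -1.69, -1.83 and -1.47 without single pigs.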

How the data were processed

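RNA-seq of longissimus dorsi from 3 UCP1 KI and 3 WT pigs was analysed, 1 library per pig. The submitters' processing notes name FastQC 0.11.2, Trimmomatic 0.36, HISAT2 2.0, StringTie 1.3.3b, bedtools 2.26.0, DESeq2 1.12.4 and Sscrofa11.1. The authors deposited raw counts for 30476 Ensembl genes, without normalization, and the counting tool, its strand setting and the annotation release are not given in the sources used here. All columns were used.

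Counts were fitted over the whole table in R 4.3.3 with edgeR 4.0.16 (filterByExpr, TMM, two-sided quasi-likelihood F test, condition as the only term), with a common dispersion of 0.178 and TMM factors of 0.781 to 1.18. Calls required a p below 0.05 before adjustment and a log2 fold change larger than 0.5 in size. These limits are those of the study, which does not say whether p was adjusted. Adjusted p values are Benjamini-Hochberg values over 13402 genes. Alternatives were DESeq2 1.42.0, other scaling and filters, a replicate block, no fold change limit and each pig left out. Within-pig ratios were tested by exact permutation.

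Symbols were taken from a pig gene name table, and positions and neighbours from the RefSeq annotation of Sscrofa11.1 by symbol. Full values were given for called genes, *AP3S2*, *SNAPIN*, the gene of each complex with the largest absolute fold change, and paralogs whose ratio did not overlap, and called partner genes were named. Some neighbouring genes are not reported here. Values per pig for *AP3M1*, *BLOC1S2* and *BLOC1S5* were added after their values were seen. The genes and lists were chosen with earlier results of these data known. In simulated counts (13397 genes), 37 of 67 genes simulated at a log2 difference of 1 were called, 64 of 67 at 2, 65 of 65 at 3, and 578 of 13198 unchanged genes. The simulation used the dispersion trend, with no spread particular to a gene, no outlying pig and no shift in composition. Its rates may therefore not hold for genes such as *AP4S1* and *AP3M1*, whose pigs lay far apart.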

Additional observations from a re-analysis of the deposited data

How the results depend on the processing

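DESeq2, median-of-ratios factors, all genes with any count and no fold change limit each called 4 of the adaptor protein and BLOC-1 genes, 3 higher and 1 lower. Library size only called 7, 6 of them higher, and 10 partner genes in place of 6. Requiring 10 counts in every pig removed *AP1G2* from the test and gave 0 lower calls. The replicate number as a block also gave 0 lower calls, with *AP1G2* at -2.05 and not called, and 9 partner genes. Deviations from the group means correlated at 0.0172, 0.0698 and 0.235 between pigs with the same number, the last being the highest of any pair. Those of UCP1 KI replicate 1 correlated more with WT replicate 2 (0.0999), and those of UCP1 KI replicate 2 more with WT replicate 1 (0.0832). The numbers were not taken as a pairing.

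With each pig left out, 2 to 4 genes were called, the lowest number being 2 when UCP1 KI replicate 3 or WT replicate 2 was absent. There were 0 to 1 lower calls and 3 to 13 partner calls (3 without WT replicate 2, 13 without WT replicate 3). *SNAPIN* ranged from 0.72 to 1.24.

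Sign changes occurred in genes not called. Library size only gave 0.27 for *AP1G1*, 0.30 for *AP1S1* and 0.27 for *AP2B1*. Testing all genes gave 0.021 for *AP1G1* and 0.0086 for *AP1S1*, the block 0.034 for *AP1S1*, and DESeq2 on all genes 0.0033 for *AP1G1*. *AP4B1* was -0.00023 with DESeq2 on the same genes, -0.00094 with 10 counts in every pig and -0.00073 with median-of-ratios factors. With pigs left out, ranges crossed 0 for *AP1G1* (-0.20 to 0.14), *AP1S1* (-0.21 to 0.33), *AP1S2* (-0.11 to 0.49), *AP2B1* (-0.38 to 0.21), *AP3M2* (-1.68 to 0.095), *AP4B1* (-0.19 to 0.26), *AP4M1* (-0.19 to 0.21), *AP4S1* (-2.22 to 0.30), *AP5S1* (-0.0027 to 0.61), *BLOC1S5* (-0.030 to 1.05) and *DTNBP1* (-0.69 to 0.053). The cause was not tested.

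The planned share of *AP3S2* in the counts of *AP3S1* and *AP3S2* was not run, since *AP3S1* had no identifier, and the pairs of *AP3B2* with *AP3B1* and *AP1M2* with *AP1M1* were not tested because of counts of 0. With 3 pigs in a group, an exact permutation test cannot go below p = 0.1, and *AP1G2*, at a few counts per pig, ranged from -2.81 to -1.47 with pigs left out.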
